A study of Mus musculus with 12 samples.

Results

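Genes that make fatty acids and assemble them into triglyceride were followed in mouse bone marrow-derived mesenchymal stem cells, marrow stromal cells with the capacity to form adipocytes, osteoblasts and chondrocytes. The set held 10 genes, chosen by symbol for their role: Srebf1, Acaca, Fasn, Elovl6, Scd1, Scd2, Gpam, Agpat2, Dgat1 and Dgat2. All 10 were found among the 23358 rows of the deposited gene count table, and all 10 were among the 13534 rows with enough counts to be tested. The cells grew in medium with 10% serum and were plated at 10000 cells per cm2. After 1 day they received cytochalasin D (CytoD), CK666 (CK) or both compounds (CytoD+CK) for 24 h, or no compound (Ctrl). No treatment time is given for Ctrl. Cytochalasin D blocks actin polymerisation by binding the fast-growing end of the filament, and CK666 inhibits the Arp2/3 complex, which nucleates actin branches. Each group had 3 libraries, 12 in all. The sources used here do not give doses, mouse strain or age. The labels do not state whether the libraries of a group came from separate mice or cultures, so p-values measure only the spread between libraries, which may be technical.

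In fatty acid synthesis, acetyl-CoA carboxylase makes malonyl-CoA and fatty acid synthase uses it to build palmitate. Elongases lengthen the chain and stearoyl-CoA desaturases place its first double bond, and acyltransferases then join fatty acids to glycerol 3-phosphate until a triglyceride is formed. The transcription factor SREBP-1, encoded by Srebf1, is made as a membrane precursor whose cleaved, nuclear form switches on many of these genes, and the whole pathway is strongly induced when precursor cells become adipocytes. The assay read RNA, not cleavage of SREBP-1, enzyme activity or lipid.

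Libraries held 48930210 to 69269716 gene counts, and a member had between 186 and 341420 counts in a library. Levels are in CPM, counts scaled to a common TMM-adjusted total, and in the shallowest library a gene with 0 counts could stand at up to 0.0613 CPM by counting error alone. CK replicate 3 stood apart: its median absolute log2 difference was 0.289 from CK replicate 1 and 0.276 from CK replicate 2, and theirs from each other was 0.126. The difference also followed gene length, with r = 0.377 and 0.465 across genes, so the members' changes with CK and the numbers of calls are given without it as well. All 9 tested of 10 adipocyte markers, genes that mark fat cells, were called higher with either compound and with both, and their summed level was 3503 to 4160 CPM in Ctrl, 8594 to 8901 in CytoD, 7636 to 9752 in CK and 9441 to 11749 in CytoD+CK. Most of the sum was Lpl, the lipoprotein lipase, with means of 3095, 7412, 5886 and 7424 CPM. Set against CytoD, CK had the other 8 markers called higher and Lpl lower: Adipoq had means of 153 CPM in CytoD and 603 in CK, and Fabp4 91.8 and 381. The shares of all tested genes called higher were 19.1% with CytoD, 22.5% with CK, 24.4% with both and 22.9% for CK against CytoD. Lep failed the filter on low counts. The part of this shift in the results below was not tested, and in bulk RNA more cells of a type and more RNA per cell cannot be told apart. Of the 11 stromal markers, 8 had a mean above 1 CPM in every group. Lepr, Nt5e and Thy1 were below it in every group, with means of 0.607, 0.16 and 0.025 CPM in Ctrl. Thy1 also failed the filter on low counts. The 11 markers summed to 8596 to 12486 CPM in Ctrl, 19595 to 22382 in CytoD, 6489 to 8416 in CK and 7181 to 7350 in CytoD+CK. Most of that sum was Cxcl12, a chemokine of marrow stroma, with means of 8331, 18052, 5956 and 5746 CPM. Of the 10 tested stromal markers 5 were called higher with CytoD and 2 lower, where 19.1% and 18.9% of all tested genes were. The 2 lower were Cd44, from 86.6 to 47.0 CPM, and Ly6a, from 69.1 to 23.4. With CK 2 were called higher and 4 lower, where 22.5% and 18.7% of all genes were. The 2 lower with CytoD and the 2 higher with CK are near those shares. The 8 macrophage markers summed to between 6.89 and 13.1 CPM, and Ptprc and Adgre1 were at 0 in every library. In each group 4 of the 8 had a mean above 1 CPM, among them Csf1r at 3.05 and Cd14 at 4.31 in Ctrl and Lyz2 at 5.33 in CytoD. Endothelial markers summed to at most 0.803 CPM and erythroid and lymphoid markers to at most 0.122 CPM.

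In untreated cells the desaturases were by far the most abundant members, on the scale of CPM per kilobase of the table's length column, headed CodingLength. Scd2 stood at 260.3 ± 4.59 (SD, n = 3) and Scd1 at 139 ± 17.8, followed by Agpat2 at 39.5 ± 2.06, Srebf1 at 28.5 ± 0.686, Fasn at 28.2 ± 0.0638 and Dgat1 at 24.7 ± 1.22. Acaca stood at 12.7 ± 0.428, Gpam at 7.88 ± 0.463, Elovl6 at 4.58 ± 0.0431 and Dgat2 last at 1.81 ± 0.0803. Srebf1 and Fasn overlapped between libraries, and every other pair of neighbours in this order was separate. The length given for Agpat2, 837 bases, is the shortest of the 10, and its place in the order rests on it. With CytoD alone, Scd1 at 158 ± 19.8 per kilobase came before Scd2 at 120.0 ± 4.03, and Elovl6 at 3.97 ± 0.0948 was last. With CK, Scd1 reached 849.8 ± 139 and Scd2 317 ± 46.2, and the order then ran Agpat2 at 189.8, Dgat1 at 125, Srebf1 at 53.4, Fasn at 37.0, Acaca at 20.6, Dgat2 at 16.2, Gpam at 11.8 and Elovl6 at 3.22. In that group Agpat2 overlapped Dgat1, and Dgat2 overlapped both Acaca and Gpam. The order in CytoD+CK was the same as in CK. Together the 10 genes took 0.253% to 0.272% of all gene counts in Ctrl, 0.195% to 0.219% in CytoD, 0.658% to 0.854% in CK and 0.657% to 0.813% in CytoD+CK, most of it Scd1 and Scd2.

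**Figure D1:**
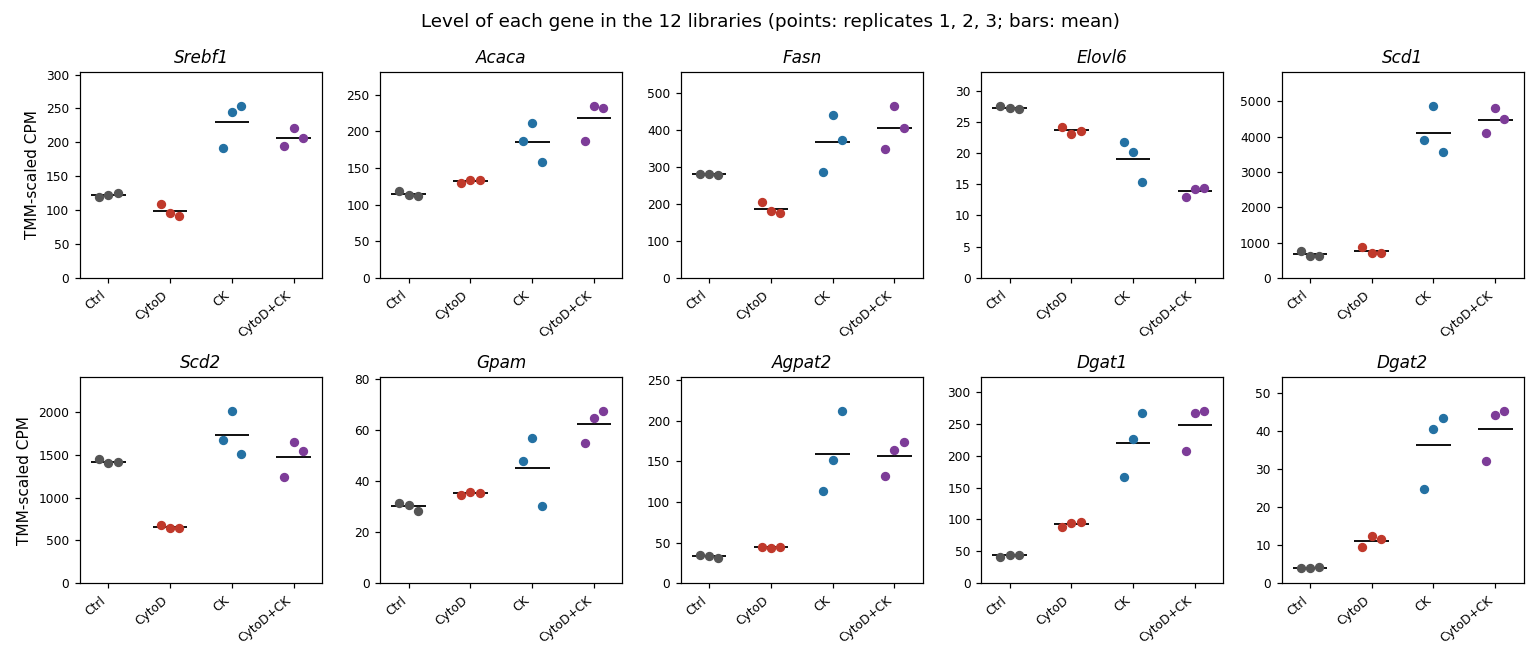
Level of each of the 10 members in TMM-scaled CPM, one panel per gene with its own axis starting at 0; points are libraries and the bar is the mean of n = 3. Scd1, Dgat1, Dgat2 and Agpat2 stand higher in both groups with CK than in the groups without it, Scd2 is lowest in CytoD, and Elovl6 is lowest in CytoD+CK.

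Cytochalasin D alone moved the pathway in both directions. The diacylglycerol acyltransferases Dgat1 and Dgat2 rose, 2.15-fold and 2.73-fold, while Fasn, Scd2 and Srebf1 fell. The largest fall was that of Scd2, to a level 2.17-fold lower. Of the 10 members 5 were called at an adjusted p under 0.05 (edgeR quasi-likelihood test, Benjamini-Hochberg over all 13534 genes), 2 higher and 3 lower, against a background of 37.9% of all tested genes, 19.1% higher and 18.9% lower. With these 2 groups fitted alone 9 members were called, while calls over all genes went from 5136 to 7344, so how the members' share stands to the background depends on the fit. The calls gained in that fit were Acaca (adjusted p = 0.00297), Elovl6 (0.00443), Agpat2 (2.27e-05) and Gpam (0.0041). Elovl6 (0.0109) and Agpat2 (0.0182) were also called after removing a trend with gene length. CytoD and Ctrl libraries were fully separate for 9 of 10 members and for 61.6% of all genes. The median log2 change of the members was 0.19 and that of all tested genes 0.02.

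CK666 alone raised 8 of the 10 members and lowered 1. Dgat2 rose 8.91-fold, Scd1 6.11-fold, Dgat1 5.08-fold and Agpat2 4.81-fold, while Srebf1, Acaca, Gpam and Fasn rose by less than 2-fold. Elovl6 fell 1.43-fold and Scd2 was not called. The 9 calls compare with 41.1% of all tested genes called, 22.5% higher and 18.7% lower. Libraries were fully separate for 9 of 10 members and for 50.1% of all genes. The median log2 change was 0.80 over the members and 0.03 over all genes. Without CK replicate 3 there were also 9 calls, with Scd2 called and Fasn not, where 5816 of 13730 tested genes were called. This comparison shares its Ctrl libraries with that of CytoD, and the values of both are set side by side below.

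The combination against Ctrl gave 9 calls, 8 higher and Elovl6 lower, where 46% of all genes were called, 24.4% higher and 21.6% lower. Libraries were fully separate for 9 of 10 members and for 63.4% of all genes, and the median log2 change was 0.99 over the members and 0.04 over all genes. Adding CK666 to cytochalasin D changed every member: 9 rose and Elovl6 fell against CytoD alone, where 30.1% of all genes were called, 15.8% higher and 14.3% lower, and 53% were fully separate. Adding cytochalasin D to CK666 gave 1 call, a fall of Elovl6, where 11.6% of all genes were called, 4.43% higher and 7.17% lower, and 27.6% were fully separate, as Elovl6 was. Set directly against CytoD, the CK libraries had 9 members called, 8 higher and Elovl6 lower, where 39.8% of genes were called, 22.9% higher and 16.8% lower, and 49.8% were fully separate. There were 10 calls for CK against CytoD and 1 for the combination against CK without CK replicate 3. Of the 13730 genes tested in that fit, 5205 and 2037 were called.

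**Figure D2:**
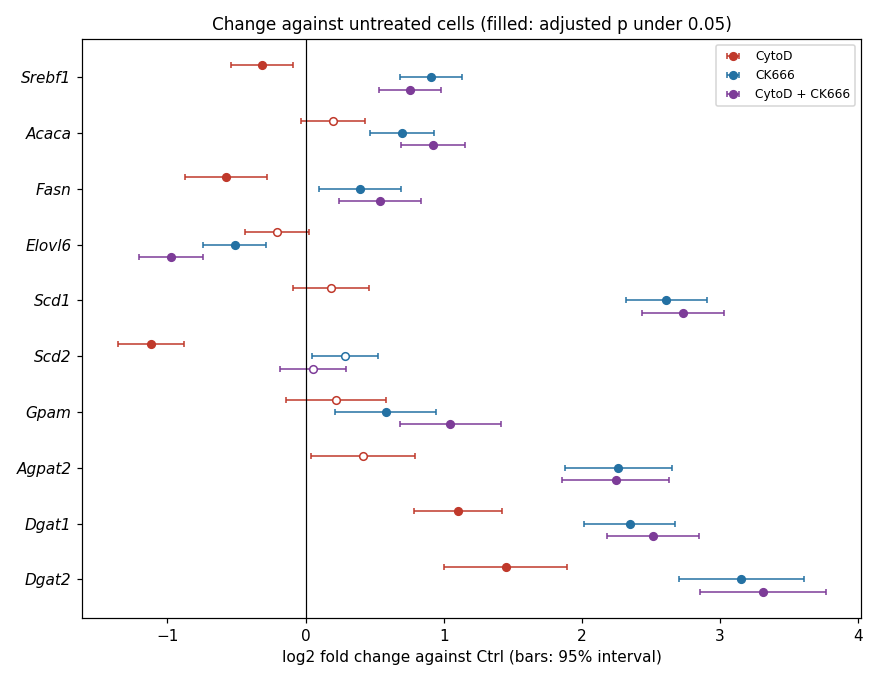
Log2 fold change of each member against Ctrl for CytoD, CK and CytoD+CK, with the 95% interval of the edgeR fit; filled points had an adjusted p under 0.05. CK and CytoD+CK lie close together for most members, and CytoD lies on the other side of 0 for Srebf1, Fasn and Scd2.

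The regulator Srebf1 (chr11:60199089-60220604 in the table, mouse build GRCm38) had levels of 119, 123 and 125 CPM in the 3 Ctrl libraries, 109, 95.5 and 91.0 in CytoD, 191, 245 and 253 in CK and 194, 220.4 and 206 in CytoD+CK. All CytoD libraries were below all Ctrl libraries, and both groups with CK were above them. The log2 change of Srebf1 was -0.32 (SE 0.10, adjusted p = 0.0288) with CytoD, 0.91 (SE 0.10, adjusted p = 2.12e-05) with CK and 0.76 (SE 0.10, adjusted p = 5.89e-05) with both. The fall with CytoD was not called without any 1 of the Ctrl libraries (adjusted p = 0.0512, 0.0702 and 0.0894 without replicates 1, 2 and 3) or without CytoD replicate 2 (0.0933) or 3 (0.119). The rise with CK was 0.79 without CK replicate 3. CytoD+CK differed from CK by -0.15, with an interval from -0.37 to 0.07 that spans 0. The row gives a single count for the gene, so the transcripts for SREBP-1a and SREBP-1c are not told apart. The row's span does not reach the RefSeq start site at 60222581. Its end overlaps that of the neighbouring row Rai1 on the chromosome, and the counting step for such reads is not known.

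Promoter sequence from RefSeq (GRCm38.p6) was at hand for 6 of the 10 members, namely Srebf1, Fasn, Acaca, Elovl6, Gpam and Agpat2, with 9 start sites. The 150 bases before the start are printed 5′ to 3′ on the gene's own strand for Fasn, a classic SREBP target, for Srebf1 itself at the start nearest the end of its counted row, and for Agpat2, which had the largest rise with CK among the 6. Capitals mark CCAAT and GGGCGG (the CCAAT box and the GC box) read on either strand, so that ATTGG and CCGCCC are the same boxes on the opposite strand.
Fasn, chr11:120824548-120824697, minus strand: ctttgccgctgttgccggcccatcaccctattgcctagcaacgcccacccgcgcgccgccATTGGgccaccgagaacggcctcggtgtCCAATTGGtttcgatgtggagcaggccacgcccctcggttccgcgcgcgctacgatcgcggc
Srebf1, chr11:60220628-60220777, minus strand: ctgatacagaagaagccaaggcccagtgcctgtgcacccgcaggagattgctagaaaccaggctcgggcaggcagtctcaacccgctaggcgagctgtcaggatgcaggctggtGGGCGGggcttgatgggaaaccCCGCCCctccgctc
Agpat2, chr2:26604418-26604567, minus strand: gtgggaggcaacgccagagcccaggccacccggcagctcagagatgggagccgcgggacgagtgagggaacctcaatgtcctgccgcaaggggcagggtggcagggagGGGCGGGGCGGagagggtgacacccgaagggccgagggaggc
The Fasn window holds 3 CCAAT boxes, the nearest of them a pair on opposite strands that overlap in CCAATTGG, and no GC box. The printed Srebf1 and Agpat2 windows hold 2 GC boxes each and no CCAAT box. The GC boxes of Agpat2 overlap by 1 base. The other Srebf1 starts do have a CCAAT box, 166 to 162 bases before 60222581 and 30 to 26 before 60210471. The 30 bases after the printed Srebf1 start were in 0 annotated transcripts of that gene. Those after 60210471 were also in 0, and those after 60222581 in 1. Over the 250 bases before each of the 9 member start sites, CCAAT was in 4 and GGGCGG in 4, against 33.8% and 32.7% of 32851 such windows of all genes. Srebf1 and Gpam each have more than 1 of these start sites, so the 9 windows are not separate genes. The sterol response element core TCACNCCAC was in 0 of 9 against 1.05% of all windows, and the E-box CACGTG in 0 of 9 against 6.02%. These are letter matches in a short window on both strands, and no match says only that those letters are not in it.

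Of the enzymes of palmitate synthesis, Fasn was called lower with CytoD. Acaca was not called in the main fit, but was with CytoD and Ctrl fitted alone. Acaca (chr11:84195438-84401651), the carboxylase of the first committed step, had 119, 113 and 112 CPM in Ctrl, 129, 133 and 133 in CytoD, 187, 212 and 159 in CK and 186, 235 and 233 in CytoD+CK. It was above Ctrl in every treated library, but the step with CytoD was small, at 0.20 (SE 0.11, adjusted p = 0.161), and not called. The rise was 0.70 (SE 0.11, adjusted p = 0.000226) with CK, 0.76 without CK replicate 3, and 0.92 (SE 0.11, adjusted p = 1.43e-05) with both.

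Fasn (chr11:120805958-120824547), which carries all catalytic steps of palmitate synthesis on 1 protein, had 281, 280.5 and 279.5 CPM in Ctrl, 207, 181 and 176 in CytoD, 288, 441 and 374 in CK and 348, 465 and 407 in CytoD+CK. The Ctrl libraries were almost identical, all CytoD libraries were lower, and CK replicate 1 was barely above Ctrl. Its log2 change was -0.58 (SE 0.14, adjusted p = 0.00523) with CytoD, 0.39 (SE 0.14, adjusted p = 0.036) with CK and 0.54 (SE 0.14, adjusted p = 0.00602) with both. The call with CK is fragile: it was lost without any 1 Ctrl library (adjusted p = 0.112, 0.0864 and 0.111), without CK replicate 2 (0.153) or 3 (0.0827), with RLE scaling (0.0549) and when the 2 groups were fitted alone (0.0759). Against CytoD, adding CK raised Fasn by 1.11 (SE 0.14, adjusted p = 7.54e-05). The ratio of Fasn to Acaca per kilobase was 2.22 ± 0.0700 in Ctrl and 1.30 ± 0.138 in CytoD, with no overlap, and 1.81 ± 0.379 in CK and 1.70 ± 0.106 in CytoD+CK (SD, n = 3).

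Among the enzymes that remodel palmitate, Scd1 and Scd2, Δ9 desaturases encoded in the same gene cluster on chromosome 19, had different patterns over the groups. Scd1 (chr19:44394450-44407709), the isoform that dominates in adipose tissue, had 772, 620.2 and 625 CPM in Ctrl and 874, 709 and 707 in CytoD. It had 3896, 4863 and 3572 in CK and 4111, 4816 and 4491 in CytoD+CK. Every library with CK was at least several times above every library without it, while Ctrl and CytoD overlapped. The log2 change was 0.18 (SE 0.13, adjusted p = 0.282) with CytoD, 2.61 (SE 0.14, adjusted p = 4.08e-08) with CK, 2.66 without CK replicate 3, and 2.73 (SE 0.14, adjusted p = 1.56e-08) with both.

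Scd2 (chr19:44293676-44306862), the isoform prominent in brain and in many proliferating cells, had 1447, 1400.0 and 1409 CPM in Ctrl and 679, 644 and 639 in CytoD. It had 1667, 2005 and 1513 in CK and 1237, 1649 and 1538 in CytoD+CK. The CytoD libraries were all far below the rest, whereas for Scd1 it was the libraries with CK that stood apart. On the log2 scale Scd2 gave -1.12 (SE 0.11, adjusted p = 1.03e-05) with CytoD, 0.28 (SE 0.11, adjusted p = 0.0543) with CK and 0.06 (SE 0.11, adjusted p = 0.711) with both, the last with an interval of -0.18 to 0.29. The CK value was 0.33 without CK replicate 3, and was then called (adjusted p = 0.0189). Added to CytoD, CK raised Scd2 by 1.17 (SE 0.11, adjusted p = 9.82e-06).

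The 2 desaturase patterns together changed the balance of the isoforms in steps. The per-kilobase ratio of Scd1 to Scd2 was 0.601, 0.499 and 0.500 in Ctrl, 1.45, 1.24 and 1.25 in CytoD, 2.63, 2.73 and 2.66 in CK and 3.75, 3.29 and 3.29 in CytoD+CK. No library of any group overlapped one of another group. The means were 0.534 ± 0.0587, 1.31 ± 0.119, 2.68 ± 0.0511 and 3.44 ± 0.263 (SD, n = 3). Of the pair, Scd2 was the one called with CytoD and Scd1 the one called with CK. The genes are close paralogs, and reads from shared stretches could have been assigned to either or dropped.

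**Figure D3:**
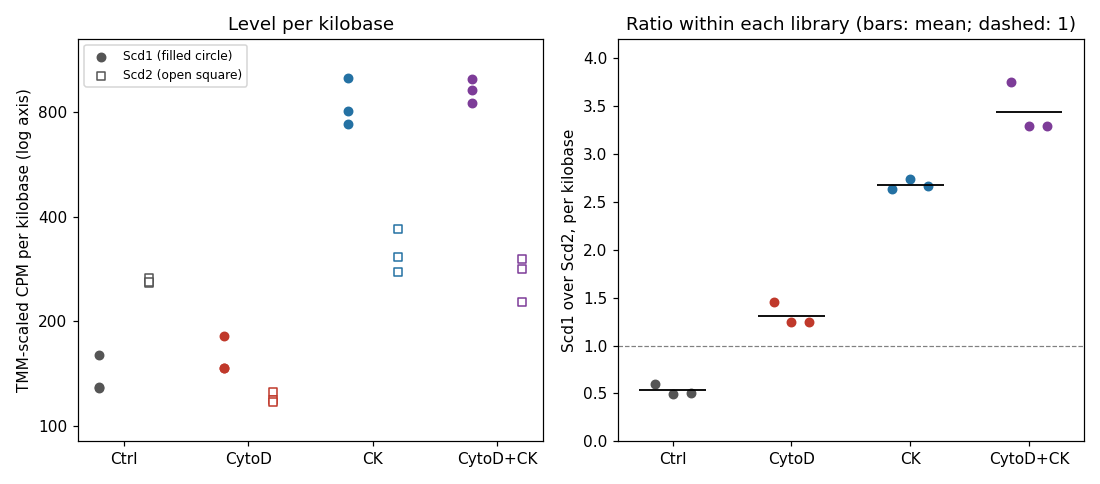
Left, levels of Scd1 (filled circles) and Scd2 (open squares) in TMM-scaled CPM per kilobase on a log axis in each library of the 4 groups. Right, the per-kilobase ratio of Scd1 to Scd2, with points for libraries, a bar for the mean of n = 3 and a dashed line at 1; the groups rise from 0.534 in Ctrl to 3.44 in CytoD+CK without overlap.

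Elovl6 (chr3:129532386-129638493), the elongase that takes palmitate to stearate, was the member called lower in each comparison with CK. It had 27.5, 27.3 and 27.0 CPM in Ctrl, 24.2, 23.1 and 23.6 in CytoD, 21.8, 20.2 and 15.3 in CK and 13.0, 14.2 and 14.5 in CytoD+CK. The groups stepped down in that order and none overlapped with the next. The log2 change was -0.21 (SE 0.11, adjusted p = 0.143) with CytoD, -0.51 (SE 0.11, adjusted p = 0.00195) with CK, -0.97 (SE 0.11, adjusted p = 9.13e-06) with both and -0.46 (SE 0.11, adjusted p = 0.0156) for both against CK alone. Without CK replicate 3, the lowest of its group, the values were -0.42 with CK and -0.58 for both against CK. The latter call was lost without CK replicate 1 (adjusted p = 0.0514) and with the 2 groups fitted alone (0.132). CK against CytoD gave -0.31 (adjusted p = 0.036), a call lost without any 1 CytoD library (0.0937, 0.0715 and 0.0863).

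Of the 4 members that are acyltransferases of triglyceride assembly, Dgat1 and Dgat2 were called with CytoD. Gpam and Agpat2 were not called in the main fit, but were with CytoD and Ctrl fitted alone. Gpam (chr19:55069734-55099447), the mitochondrial enzyme that puts the first fatty acid on glycerol 3-phosphate, had 31.6, 30.7 and 28.2 CPM in Ctrl, 34.7, 35.5 and 35.2 in CytoD, 48.0, 56.9 and 30.3 in CK and 55.1, 64.6 and 67.3 in CytoD+CK. CK replicate 3 lay within the Ctrl range, well below the other CK libraries. Gpam gave log2 changes of 0.22 (SE 0.17, adjusted p = 0.324) with CytoD, 0.58 (SE 0.17, adjusted p = 0.0148) with CK and 1.05 (SE 0.17, adjusted p = 0.000226) with both. The CK call was lost without CK replicate 2 (adjusted p = 0.0639), without Ctrl replicate 3 (0.0608) and with the 2 groups fitted alone (0.0668), and the value was 0.76 without CK replicate 3. Both against CK gave 0.47 (adjusted p = 0.0853), which was 0.26 without CK replicate 3 and 0.67, then called (adjusted p = 0.0126), without CK replicate 2.

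Agpat2 (chr2:26593587-26604210), which adds the second fatty acid and whose loss causes lipodystrophy, had 34.7, 33.3 and 31.3 CPM in Ctrl and 44.3, 43.0 and 45.0 in CytoD. It had 113, 152 and 211 in CK and 132, 164 and 174 in CytoD+CK. All CK libraries were more than 2-fold above all CytoD libraries, with CK replicate 3 the highest of all 12. The log2 change was 0.42 (SE 0.17, adjusted p = 0.0759) with CytoD, 2.26 (SE 0.18, adjusted p = 9.74e-07) with CK, 1.96 without CK replicate 3, and 2.24 (SE 0.18, adjusted p = 5.2e-07) with both.

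Dgat1 and Dgat2 are unrelated enzymes of the endoplasmic reticulum that both add the last fatty acid. Dgat1 (chr15:76502015-76511818) had 40.9, 44.4 and 44.8 CPM in Ctrl, 88.4, 94.2 and 96.5 in CytoD, 166, 227 and 267 in CK and 207, 267 and 269 in CytoD+CK. The log2 change was 1.10 (SE 0.15, adjusted p = 9e-05) with CytoD, 2.34 (SE 0.15, adjusted p = 2.07e-07) with CK, 2.14 without CK replicate 3, and 2.52 (SE 0.15, adjusted p = 5.63e-08) with both. Dgat2 (chr7:99153663-99182713), tied to storage of newly made fatty acids, had 4.03, 3.93 and 4.28 CPM in Ctrl, 9.50, 12.3 and 11.6 in CytoD, 24.9, 40.7 and 43.6 in CK and 32.2, 44.3 and 45.2 in CytoD+CK. For both genes Ctrl, CytoD and the groups with CK formed 3 separate levels, and CK and CytoD+CK overlapped. The Dgat2 change was 1.45 (SE 0.21, adjusted p = 0.00015) with CytoD, 3.15 (SE 0.21, adjusted p = 2.56e-07) with CK, 2.96 without CK replicate 3, and 3.31 (SE 0.21, adjusted p = 7.21e-08) with both. The per-kilobase ratio of Dgat1 to Dgat2 was 13.6 ± 0.754 in Ctrl, 10.8 ± 1.09 in CytoD, 7.87 ± 0.720 in CK and 7.88 ± 0.334 in CytoD+CK. Dgat1 was thus the more abundant transcript in every library, by less with treatment.

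Whether the effect of CytoD depended on CK was tested as an interaction, the log2 change with CytoD in cells that had CK minus that in cells without it. It was called for 4 of 10 members, 2 in each direction, where 14.3% of all genes were called, 6.63% higher and 7.67% lower. For Scd2 it was 0.89 (SE 0.16, adjusted p = 0.00304): the change with CytoD was -1.12 alone and -0.23 in the presence of CK. Fasn gave 0.72 (SE 0.19, adjusted p = 0.0263), with -0.58 alone and 0.15 in the presence of CK. Neither difference in the presence of CK was called, and for Fasn it pointed up.

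For Dgat1 the interaction was -0.93 (SE 0.20, adjusted p = 0.0105) and for Dgat2 -1.29 (SE 0.27, adjusted p = 0.00871). CytoD raised them by 1.10 and 1.45 alone, and in the presence of CK the differences were 0.17 and 0.16, neither of them called. The rises of these genes with the 2 compounds were thus less than additive on the log2 scale. Without CK replicate 3 the 4 values were 0.83 for Scd2, 0.76 for Fasn, -0.74 for Dgat1 and -1.12 for Dgat2. The other 6 members were not called, with intervals of -0.15 to 0.48 for Srebf1, -0.30 to 0.35 for Acaca, -0.45 to 0.33 for Scd1, -0.58 to 0.07 for Elovl6, -0.26 to 0.76 for Gpam and -0.96 to 0.09 for Agpat2. The Fasn call was lost after removing a trend with gene length (adjusted p = 0.197) and without replicate 2 or 3 of Ctrl (0.0581 and 0.058), of CytoD (0.0692 and 0.072) or of CytoD+CK (0.0656 and 0.051). Without CK replicate 3 Elovl6 was called as well, at -0.37 (adjusted p = 0.00811), and without CK replicate 1 Agpat2 was, at -0.63 (0.0429).

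**Figure D4:**
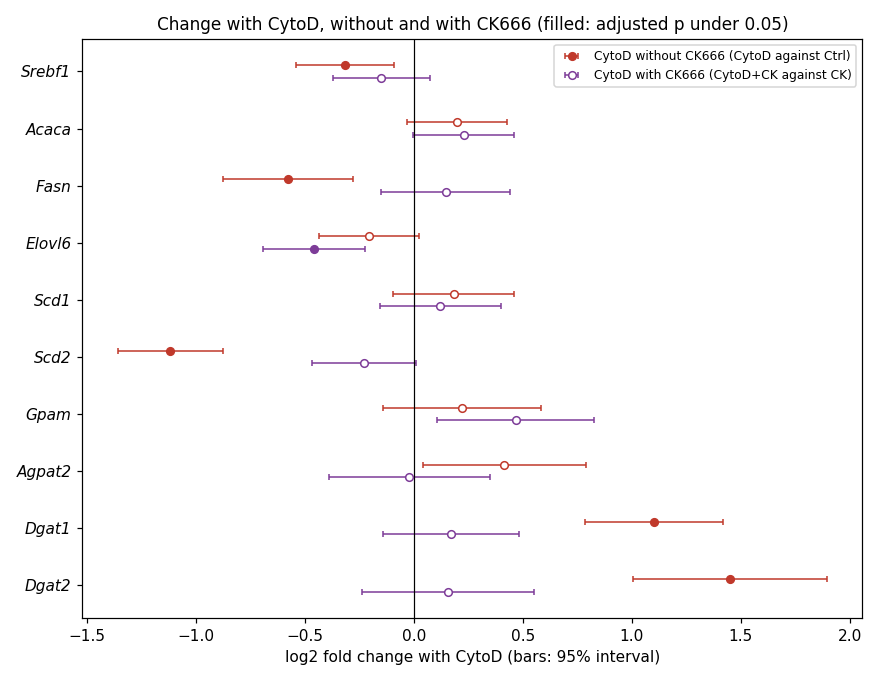
Log2 change with CytoD for each member in the absence of CK and in its presence, with 95% intervals; filled points had an adjusted p under 0.05 for that change. Scd2 and Fasn lie well below 0 without CK and nearer to it with CK, and Dgat1 and Dgat2 lie well above 0 without CK and near it with CK.

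The other genes of each step were taken from lists set by role. Their counts stand beside shares over all tested genes of 19.1% called higher and 18.9% lower with CytoD, 22.5% and 18.7% with CK, and 24.4% and 21.6% with both. Of the 8 tested genes that supply or run palmitate synthesis outside the members, 2 were called higher and 3 lower with CytoD, 6 and 1 with CK, and 5 and 1 with both, with median log2 changes of -0.04, 0.33 and 0.49. Acly, which makes cytosolic acetyl-CoA from citrate, stood at 280.0 ± 12.3 CPM in Ctrl, 213 ± 8.52 in CytoD, 237 ± 28.1 in CK and 237 ± 6.72 in CytoD+CK. Its log2 change was -0.39 (adjusted p = 0.00218) with CytoD, and its smaller difference with CK, -0.24 (adjusted p = 0.0332), was not called without Ctrl replicate 1 (0.0598) or 2 (0.07), without CK replicate 1 (0.0555) or with the 2 groups fitted alone (0.121). Acss2, which makes acetyl-CoA from acetate, rose from 20.1 ± 2.62 CPM to 44.4 ± 7.23 with CK, by 1.15 (adjusted p = 2.09e-05). Acacb, the carboxylase tied to fatty acid oxidation, rose by 0.53 with CytoD and 0.83 with CK.

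Elongation and desaturation outside the members moved mostly down with CytoD. Of 15 tested genes 10 were lower and 1 higher with CytoD (median -0.51), 6 and 1 with CK (-0.11), and 7 and 1 with both (-0.22). Fads2, the Δ6 desaturase of polyunsaturated fatty acids, had 95.6 ± 2.54 CPM in Ctrl, 52.8 ± 4.65 in CytoD, 109 ± 9.05 in CK and 73.2 ± 4.05 in CytoD+CK. Its log2 change was -0.86 (adjusted p = 7.97e-06) with CytoD, where it fell, and 0.19 (adjusted p = 0.077) with CK. Elovl5, a polyunsaturated chain elongase, fell with each compound, with log2 changes of -0.57 (adjusted p = 6.18e-05) with CytoD and -0.43 (adjusted p = 0.000412) with CK. Hacd1, a dehydratase of the elongation cycle, fell likewise, with -0.79 (adjusted p = 6.65e-06) and -0.75 (adjusted p = 6.36e-06).

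In triglyceride and phosphatidate assembly 19 further genes were tested. With CytoD 4 were higher and 6 lower (median -0.05), with CK 6 and 3 (0.00), and with both 8 and 4 (0.06). The 4 higher with CytoD, the 3 lower with CK and the 4 lower with both are near the shares over all genes. Those that rose most included Gpat3 (Agpat9 in the table), an endoplasmic reticulum enzyme for the same step as Gpam, at 7.01 ± 0.227 CPM in Ctrl, 14.8 ± 0.901 in CytoD, 96.3 ± 23.4 in CK and 145 ± 36.7 in CytoD+CK. Its log2 change with CK was 3.78 (SE 0.21, adjusted p = 5.98e-08), larger in size than that of any member. Acsl1, which activates fatty acids to acyl-CoA, went from 53.1 ± 5.18 CPM in Ctrl to 123 ± 1.96 in CytoD and 541 ± 157 in CK, a change of 3.35 (SE 0.21, adjusted p = 1.93e-07) with CK. Gpd1, which makes glycerol 3-phosphate, rose from 2.77 ± 0.460 to 19.5 ± 7.55 CPM with CK, by 2.82 (adjusted p = 9.9e-06). Lpin1, the phosphatidate phosphatase, rose by 0.45 with CytoD and 1.13 with CK.

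Among 15 tested genes of SREBP processing and other lipogenic regulators, 7 were higher and 3 lower with CytoD (median 0.19), 8 and 1 with CK (0.25), and 9 and 1 with both (0.31). Srebf2, the paralog that favours cholesterol genes, fell from 279.9 ± 5.09 CPM in Ctrl to 167 ± 12.2 in CytoD and 224 ± 20.5 in CK, log2 changes of -0.75 (adjusted p = 1.57e-05) and -0.32 (adjusted p = 0.00565). It was thus lower with CK, where Srebf1 was higher. Insig1, which retains SREBP precursors in the endoplasmic reticulum, rose with CK by 0.70 (adjusted p = 0.000404) and gave 0.12 (adjusted p = 0.445) with CytoD. Nr1h3, encoding the oxysterol receptor LXRα that acts on Srebf1, rose by 0.91 (adjusted p = 4.76e-06) with CytoD and 1.21 (adjusted p = 2.94e-07) with CK. Mlxipl, encoding the glucose-responsive factor ChREBP, was near the floor in Ctrl at 0.0835 CPM and at 0.349 in CytoD, 1.39 in CK and 1.36 in CytoD+CK.

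Cholesterol synthesis and uptake, the branch run mainly by SREBP-2, had more genes called lower than higher in each treated group. All 22 genes were lower with CytoD (median -0.93), 11 were lower and 1 higher with CK (-0.31), and 16 and 1 with both (-0.56). Against CytoD alone, the combination had 12 called, all of them higher, where 15.8% of all tested genes were called higher and 14.3% lower. Of the adipocyte regulators, Pparg rose by 0.59 with CytoD and 0.91 with CK, and Cebpa by 0.83 and 1.17. Plin1, the lipid droplet coat protein, rose from 6.97 ± 0.791 CPM in Ctrl to 141 ± 2.71 in CytoD and 457 ± 126 in CK. The adipocyte markers thus rose with CytoD alone, as Dgat1 and Dgat2 did, while Fasn, Scd2 and Srebf1 fell. The other members were not called in the main fit. Without CK replicate 3, the numbers called higher and lower with CK were 5 and 1 for fatty acid synthesis, 1 and 7 for elongation and desaturation, 7 and 5 for triglyceride and phosphatidate assembly, 7 and 1 for the regulators, and 1 and 14 for cholesterol synthesis and uptake. In that fit 2664 of all 13730 tested genes were called higher and 3152 lower. The 5 lower in triglyceride and phosphatidate assembly are near that share.

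**Figure D5:**
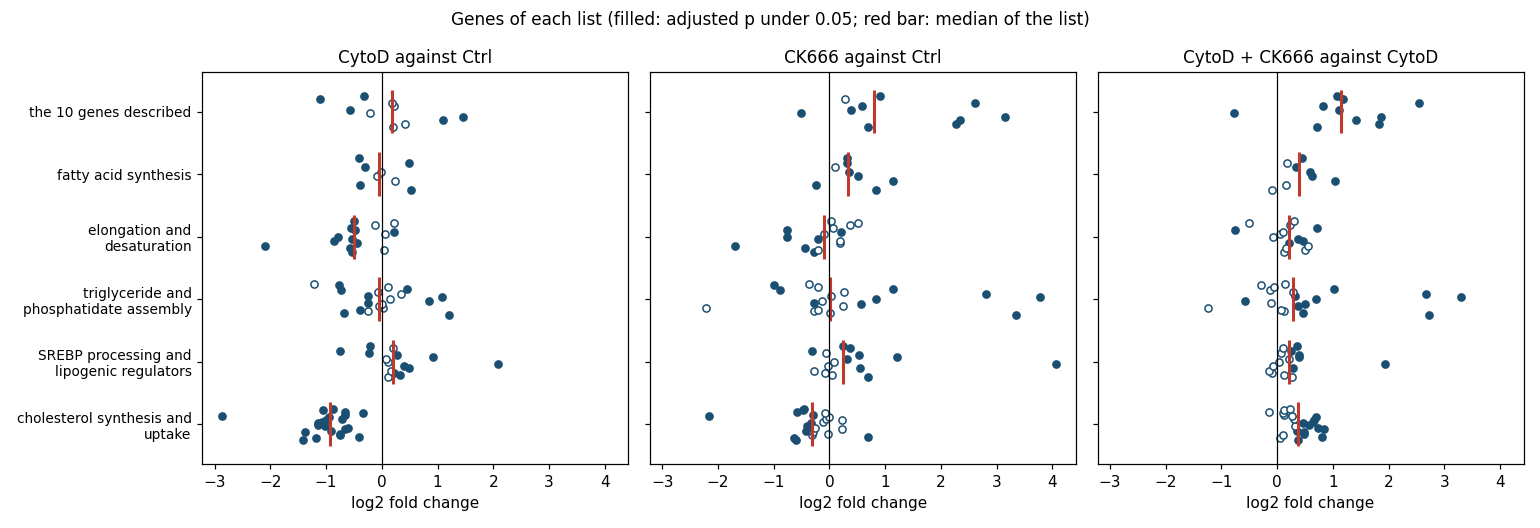
Log2 fold change of the 10 members and of the tested genes of each list, for CytoD against Ctrl, CK against Ctrl and CytoD+CK against CytoD; each point is a gene, filled at an adjusted p under 0.05, and the red bar is the median. The cholesterol genes all lie below 0 with CytoD, with a median of -0.93, and the members have a median of 0.80 with CK.

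The genes whose levels ran most like Fasn over the 12 libraries, by Pearson correlation of log2 CPM, were Ogdh (r = 0.964), Ehd1 (0.962), Ccrn4l (0.961), Akt2 (0.959) and Cs (0.957). Those most like Srebf1 were Mknk2 (0.991), Atp5a1 (0.989), Atp5b (0.986), Sfxn1 (0.984) and Gys1 (0.982). These 10 genes were picked as the highest of 13534, their libraries share groups, and the values are a description only. None of them is another member of the set.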

How the data were processed

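RNA-seq of 12 libraries in 4 groups of 3 was used as a gene table. The count columns were deposited by the authors as whole numbers of reads per gene, per the file headers, and were analysed as deposited. The RPKM columns, per the file headers also made by the authors, were used only to derive a total per library, which was 1.122 to 1.162 times the sum of gene counts. The submitters' processing notes name CASAVA 1.9, TopHat 12.0.6, HTSeq and the human build hg19. The symbols and coordinates are those of mouse: of 20762 rows matched by symbol to RefSeq on GRCm38.p6, 99.3% overlapped that gene, so coordinates are given as GRCm38. All counts are even, with 0 odd values, so each fragment may have been counted by both reads and counting error may be larger than the counts imply.

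Of 23358 rows, 13534 passed edgeR's filterByExpr (minimum count 10). After TMM scaling, edgeR 4.0.16 (R 4.3.3) fitted 1 quasi-likelihood model with 4 group means, from which 7 contrasts were tested, 2-sided, with Benjamini-Hochberg adjustment within each. A gene was called at an adjusted p under 0.05. The script recovered seeded changes when tested on simulated data. Levels are TMM-scaled CPM without pseudocount, and fold changes come from the fit with a 95% interval. Levels were compared between genes only per kilobase of the table's length column, headed CodingLength. That column also served as the gene length elsewhere. Correlations used log2 CPM with a prior count of 2.

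The members, gene lists and named genes were chosen with earlier results of these data known. Named genes were the 10 members, up to 3 called genes of largest change per list, and a set by role, of which the text prints a part. Some genes of that set are not reported here. Alternatives were RLE scaling, no filter, halved counts, a gene length correction, the 2 groups alone, a replicate block, DESeq2 1.42.0 and leaving out each library. Replicate numbers were not taken to pair the libraries, though pairing is not excluded. Of 18 same-number pairs 4 correlated above 0.1, and 8 of 12 libraries correlated best with their own number.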

Additional observations from a re-analysis of the deposited data

Results flagged for a closer look

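Some genes responded to CytoD differently in cells that had CK than in cells that did not, by the interaction test of the edgeR fit, which was called for 14.3% of all tested genes. Among the members, Dgat1 at -0.93 (adjusted p = 0.0105) and Dgat2 at -1.29 (adjusted p = 0.00871) gained less from CytoD on the log2 scale when CK was present, and Scd2 at 0.89 (adjusted p = 0.00304) and Fasn at 0.72 (adjusted p = 0.0263) had changes with CytoD that were higher in the presence of CK than without it. Of the supporting enzymes, Acly gave 0.39 (adjusted p = 0.039), Elovl5 0.59 (adjusted p = 0.00276) and Acacb -0.93 (adjusted p = 0.00045). The Acly value was not called in 10 of the fits that left out 1 library.

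Of the regulators, Srebf2 gave 0.57 (adjusted p = 0.00561) and Nr1h3 -0.83 (adjusted p = 0.000798). Of the 9 tested adipocyte markers 7 were called lower in the interaction and 2 were not called, where 7.67% of all genes were called lower. Among the 7, which were less than additive, Pparg gave -0.52 (adjusted p = 0.0071) and Cebpa -0.78 (adjusted p = 0.00201). Adipoq gave -2.76 (adjusted p = 5.61e-05) and Plin1 -3.84 (adjusted p = 9.41e-06).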

How the results depend on the processing

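Of 960 values of the members under the alternatives, 902 kept their direction and side of the threshold, 28 lost a call, 17 gained one and 13 changed sign, all 13 of them in values that were not called; the cause of these changes was not tested. For CytoD+CK against CK, removing a length trend gave -0.13 for Fasn and 0.15 for Agpat2, and leaving out single libraries gave -0.0039 to 0.30 for Fasn, -0.056 to 0.32 for Dgat2 (both lowest without CK replicate 1) and -0.21 to 0.25 for Agpat2 (highest without CK replicate 3). In the interaction, Acaca was -0.15 after removing a length trend and -0.049 (without CK replicate 3) to 0.14 with a library left out, and Scd1 was -0.15 to 0.079 (without CK replicate 2). Scd2 in CytoD+CK against Ctrl was -0.032 (without CytoD+CK replicate 2) to 0.17.

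With the 2 groups fitted alone, 9 members rather than 5 were called with CytoD, and 0 rather than 1 for CytoD+CK against CK, where DESeq2 called 2, a length trend correction 3, and leaving out single libraries 0 to 3. Over all genes that comparison gave 1570 calls, 459 with the groups alone and 745 to 2563 with a library left out. It gave 2320 with DESeq2 and 2169 with the length trend correction. CK against CytoD gave 5380 calls and 3558 with the groups alone, and the interaction gave 1935 and, with a library left out, 1094 (CytoD replicate 2) to 3396 (CK replicate 3). Numbers of calls for the other comparisons stayed within 1.5 times. With the replicate number as a block, genes called were 5212, 5652 and 6299 for CytoD, CK and both against Ctrl, 4166 and 1726 for both against CytoD and CK, 5477 for CK against CytoD and 2078 for the interaction. All 70 member values kept their call under the block. The labels give the number no meaning, and same-number libraries correlated between -0.0789 and 0.256, so the number was not taken to pair them; 8 of 12 libraries correlated best with their own number, a hint from the data that it may be shared. Of 1253 values of the named list genes, 70 lost their call and none changed sign. No scaling moved the median of all genes by 0.1 or more on the log2 scale. At 186 counts or more in every library, depth limited no member, while Mlxipl rests on few counts.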
